A study of Mus musculus with 16 samples.

Results

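Polyamines are small positively charged molecules that bind nucleic acids and are needed for protein synthesis and cell growth. Putrescine is made from ornithine, is lengthened to spermidine and then to spermine with aminopropyl groups from decarboxylated S-adenosylmethionine, and the longer forms can be acetylated or oxidised back to the shorter ones. In skeletal muscle the transcripts of Amd1 and Smox are known to follow muscle mass, so the pathway is of interest in tumor-bearing and trained mice.

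Described here are 8 genes of polyamine synthesis and turnover, chosen by symbol from the 35415 genes in the count and FPKM tables (FPKM are fragment counts scaled by gene length and library total). Odc1, Amd1, Srm and Sms are the synthesis enzymes, Sat1 and Smox the breakdown enzymes, and Oaz1 and Azin1 the regulators of ornithine decarboxylase. All 8 were found and all 8 passed the filter on low counts that 14749 genes passed. RNA was taken from the gastrocnemius, a calf muscle, of 16 male BALB/c mice of wild-type genotype bought at 8 weeks of age, with 4 mice in each of 4 groups. The C (control) and E (exercise) groups received saline under the left hind limb skin, and the T (tumor-bearing) and TE (tumor-bearing plus exercise) groups received CT26 cells, a colon carcinoma line from BALB/c mice, at the same place, all under pentobarbital. The E and TE groups then ran on a treadmill at 14 m/min for 60 min a day on 6 days a week over 4 weeks, while the C and T groups stood on a treadmill that did not move. The injections were made at 1 hind limb, the side of the sampled muscle is not given in the sources used here, and the labels do not say which of the sequenced mice carried a measurable tumor. All T mice of the study developed a tumor, but not every TE mouse did, so tumor status is not known for each sequenced TE mouse.

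Library totals ranged from 35628211 to 37635741 counts. The 12 muscle fiber markers were the most abundant marker list in all 16 libraries, with summed levels of 67700 to 78500 FPKM, so the tissue matched its label, whereas 5 epithelial or carcinoma markers summed to 0.685 to 2.43 FPKM. With the libraries divided into 3 clusters over all tested genes, T mice 3 and 4 formed a cluster of their own and TE mouse 4 stood alone, with a summed level of 124 FPKM for the lymphocyte and lymph node list against 4.71 to 42.0 FPKM in the other 15 libraries. The single library nearest to T mouse 3 was that of TE mouse 3, and the one nearest to T mouse 4 was that of TE mouse 1. Results that rest on T mice 3 and 4 are given with and without them, a choice made after the data were seen. In bulk tissue, fewer cells of a type and less RNA per cell cannot be told apart.

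Of the 8 genes, 0 passed the test in any of 7 comparisons (edgeR's quasi-likelihood test, Benjamini-Hochberg adjusted p-value under 0.05), and the same count was 0 with DESeq2 and with limma on FPKM. Sat1, which acetylates spermidine and spermine, was higher in all 12 E, T and TE mice than in any C mouse. The C mice did not overlap the other 12, in either direction, for 0.78% of all tested genes. The adjusted p-values of Sat1 by edgeR over all 16 mice were 0.132 or more. Leaving out T mouse 2 gave the T vs C difference of Sat1 an adjusted p of 0.0359 by edgeR. That fit called 255 of all tested genes in T vs C, where the fit of all mice called 100. Without T mice 3 and 4 the adjusted p of Sat1 was 0.603 by edgeR. Amd1 and Smox, the enzymes that supply aminopropyl groups and oxidise spermine, were both low in T mice 3 and 4 and in none of the other 14 mice. Sms, which makes spermine, was higher in all TE mice than in all E mice (adjusted p = 0.665 by edgeR), and 6.62% of all tested genes likewise did not overlap between these groups.

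Amd1 encodes S-adenosylmethionine decarboxylase and lies at chr10:40162797-40178185 on the minus strand of GRCm39. Amd2 is a nearly identical copy with a single exon at chr10:35584671-35587888, so how reads were divided between the pair is uncertain. Over 1002 coding bases the reference sequences of the pair differed at 1 position, G796C counted from the A of the Amd1 start codon, which is 99.9% identity, and their transcripts differed at 14 of 3202 aligned positions. The following 60 coding bases around that position, bases 766 to 825 read 5′ to 3′ from GRCm39 (chr10:40166153-40166212 for Amd1 and chr10:35586731-35586790 for Amd2), show how little separates the 2 genes, with the differing base in capitals.
Amd1: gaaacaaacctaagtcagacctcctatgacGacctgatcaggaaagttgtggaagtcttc
Amd2: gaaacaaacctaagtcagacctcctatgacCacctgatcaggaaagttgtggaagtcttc
A read that lies within the aligned stretch and misses the differing positions matches both genes. Amd2 counts were 4.37% to 6.08% of Amd1 counts in the 16 libraries, and 5.12% and 5.08% in T mice 3 and 4.

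The promoter of Amd1 is shown because Amd1 varied most between mice, and those of Srm and Sms because they were the members with a match to a searched motif. Each is the 250 bases before the start of the transcript that the annotation marks as canonical, 5′ to 3′ along the gene's strand, from GRCm39: chr10:40178186-40178435 for Amd1 (minus strand), chr4:148675690-148675939 for Srm (plus strand) and chrX:156275297-156275546 for Sms (minus strand). The window of Sms holds 21 bases that lie inside the gene as annotated, because other transcripts start further upstream. Capitals mark the E-box CACGTG, the sequence bound by MYC with its partner MAX.
Amd1: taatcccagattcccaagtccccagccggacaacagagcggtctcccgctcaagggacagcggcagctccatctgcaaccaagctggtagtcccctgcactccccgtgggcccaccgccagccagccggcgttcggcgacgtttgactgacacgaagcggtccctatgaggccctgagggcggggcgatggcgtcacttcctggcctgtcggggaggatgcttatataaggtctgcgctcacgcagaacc
Srm: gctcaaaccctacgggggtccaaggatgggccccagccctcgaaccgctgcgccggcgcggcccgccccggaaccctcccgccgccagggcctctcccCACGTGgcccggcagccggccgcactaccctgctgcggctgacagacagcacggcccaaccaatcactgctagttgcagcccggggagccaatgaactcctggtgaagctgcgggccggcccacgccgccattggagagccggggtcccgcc
Sms: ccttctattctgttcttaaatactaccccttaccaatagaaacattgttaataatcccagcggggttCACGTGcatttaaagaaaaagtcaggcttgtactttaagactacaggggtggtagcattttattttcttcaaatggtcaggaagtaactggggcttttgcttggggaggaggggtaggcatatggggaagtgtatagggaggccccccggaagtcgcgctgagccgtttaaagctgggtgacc
The letters searched on both strands were the E-box, the sequence GTAAACA, known as the core of FoxO binding sites, and the sequence TTCNNNGAA, known as the core of STAT binding sites. The E-box lay 152 bases before the start of Srm and 183 bases before that of Sms, and the other 6 members held none of the 3 motifs in their windows, of which that of Smox lay inside the annotated gene for 231 of 250 bases and that of Odc1 for all 250. Among 13182 promoters of tested genes, 7.60% held CACGTG, 2.34% held GTAAACA and 6.51% held TTCNNNGAA. The GC content was 64.0% for Amd1, 73.2% for Srm, 46.4% for Sms and 60.4% for Smox, beside a median of 56.8% for all these promoters.

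**Figure D1:**
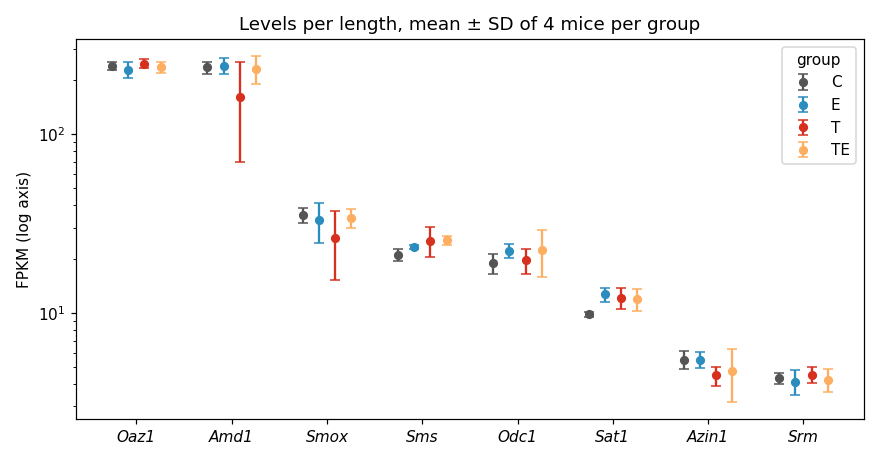
Levels per gene length of the 8 genes in FPKM on a log axis, as the mean of 4 mice in each group with bars of 1 SD. Oaz1 and Amd1 lay highest and Azin1 and Srm lowest, and the T group's bar was widest for Amd1.

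On the FPKM scale, which allows levels to be compared between genes, Oaz1 and Amd1 were the highest of the 8, with means over 16 mice of 238 and 218 FPKM. Smox followed at 32.1, Sms at 23.8, Odc1 at 20.8, Sat1 at 11.7, Azin1 at 5.03 and Srm at 4.30 FPKM. In the C group, Oaz1 at 241 ± 12.5 FPKM and Amd1 at 236 ± 18.03 FPKM (SD, n = 4) differed by less than either SD. Sms at 21.2 ± 1.57 and Odc1 at 19.0 ± 2.41 FPKM (SD, n = 4) lay close, with Sms the higher in every C mouse. The level of Amd1, the decarboxylase of S-adenosylmethionine, was thus above that of Odc1, the decarboxylase of ornithine, in every one of the 16 mice. The lengths behind the FPKM values ranged from 1075 bases for Oaz1 to 9176 bases for Azin1.

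**Figure D2:**
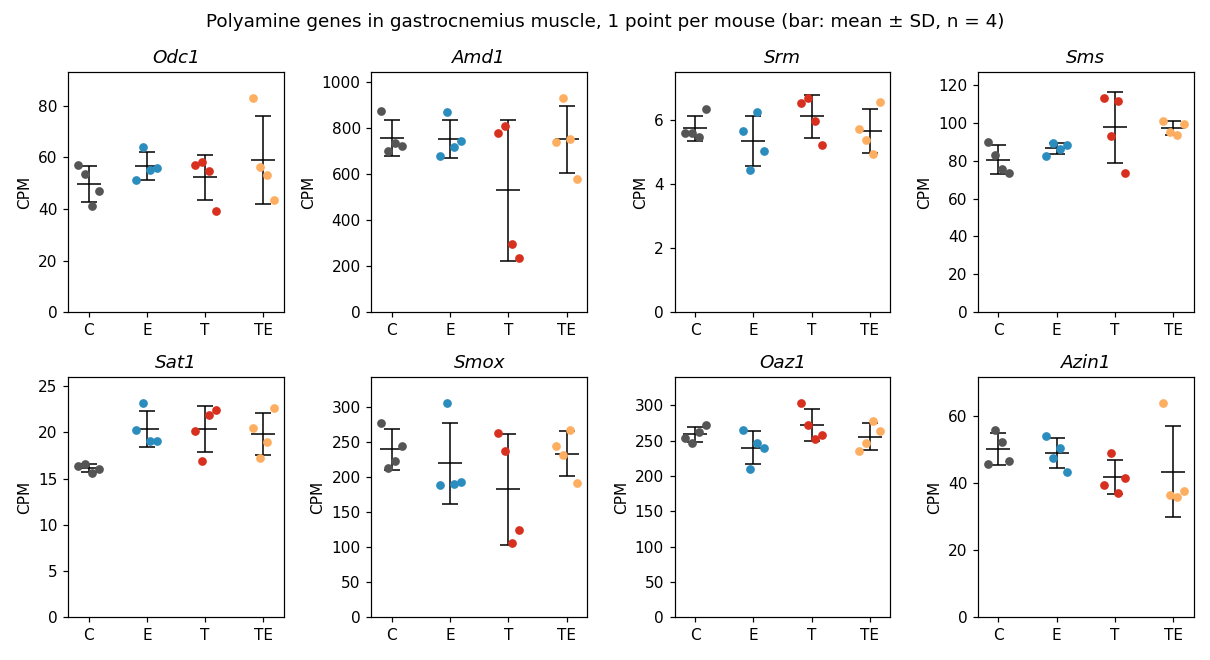
Levels of the 8 genes in CPM (counts scaled to the library total), with 1 point per mouse, the mean as a long line and bars of 1 SD (n = 4). In Amd1 and Smox, 2 of the 4 T mice lay below all other mice, and in Sat1 the C mice lay below all others.

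Levels of single genes are given below in CPM, counts scaled to the TMM-adjusted total of the tested genes in each library, which suits comparisons between mice but not between genes. Odc1 (chr12:17594383-17601507, plus strand of GRCm39), ornithine decarboxylase, makes putrescine and is the entry point of the pathway. Odc1 was at 57.1, 53.7, 41.1 and 47.1 CPM in the 4 C mice and at 51.1, 64.0, 55.3 and 55.9 CPM in the 4 E mice. It was at 57.0, 58.1, 54.9 and 39.4 CPM in the T mice and at 83.2, 56.1, 53.4 and 43.6 CPM in the TE mice. The groups overlapped, and 1 TE mouse was the highest. The log2 fold change was 0.07 for T vs C (SE 0.165, adjusted p = 0.882), 0.19 for E vs C (SE 0.164, adjusted p = 0.648) and 0.17 for TE vs T (SE 0.164, adjusted p = 0.942). Without TE mouse 1 the TE vs T value of Odc1 was -0.04, and without C mouse 3 the T vs C value was -0.01.

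Amd1 was at 873, 702, 737 and 722 CPM in the C mice and at 679, 872, 720 and 744 CPM in the E mice. It was at 778, 808, 296 and 236 CPM in the T mice and at 739, 933, 752 and 581 CPM in the TE mice. T mice 1 and 2 lay within the range of the C mice, and mice 3 and 4 lay below all other mice, at 0.405 and 0.324 times the median of the C mice. The T group's mean was 530 ± 305 CPM against 758 ± 77.6 CPM in the C group (SD, n = 4). The log2 fold change was -0.52 for T vs C (SE 0.289, adjusted p = 0.441) and 0.51 for TE vs T (SE 0.289, adjusted p = 0.867), which did not exceed the spread between mice. Without T mice 3 and 4 the T vs C value was 0.06 (adjusted p = 0.921) and the TE vs T value was -0.07. For E vs C it was -0.0091 (adjusted p = 0.993) and for TE vs E -0.0042 (adjusted p = 0.998).

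The spread of Amd1 within the T group was among the widest measured. The SD of its log2 CPM was 0.925 over the 4 T mice, and 4.61% of the 14749 tested genes had a larger SD there, while the median gene had 0.203. In the C group the SD was 0.142, which 57.7% of tested genes exceeded.

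Srm (chr4:148675940-148681792, plus strand), spermidine synthase, was at 5.60, 5.57, 5.45 and 6.32 CPM in the C mice and at 5.65, 4.45, 6.23 and 5.02 CPM in the E mice. It was at 6.52, 6.69, 5.97 and 5.22 CPM in the T mice and at 5.70, 5.38, 4.94 and 6.56 CPM in the TE mice. All 4 groups overlapped, and the log2 fold change was 0.09 for T vs C (SE 0.129, adjusted p = 0.802) and -0.11 for TE vs T (SE 0.129, adjusted p = 0.957).

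Sms (chrX:156226848-156275317, minus strand), spermine synthase, was at 90.1, 83.0, 75.8 and 73.7 CPM in the C mice and at 82.6, 89.2, 86.2 and 88.3 CPM in the E mice. It was at 113, 92.9, 111 and 73.4 CPM in the T mice and at 101, 95.3, 93.5 and 99.7 CPM in the TE mice. All TE mice and 3 of the 4 T mice lay above every C and E mouse, and T mouse 4 was the lowest of the 16. The log2 fold change was 0.28 for T vs C (SE 0.105, adjusted p = 0.232 by edgeR) and 0.17 for TE vs E (SE 0.105, adjusted p = 0.665 by edgeR). For the tumor main effect, the mean of T and TE against the mean of C and E, it was 0.22 (SE 0.0741, adjusted p = 0.169 by edgeR). Without T mouse 4, Sms passed in T vs C at 0.39 (adjusted p = 0.0350) and in the tumor main effect at 0.28 (adjusted p = 0.0147), so this 1 library decided the call. Red cell markers (5 genes, none at 0) were also higher, with summed levels of 361 to 581 FPKM in C and E mice and 733 to 1270 FPKM in T and TE mice. Neutrophil markers (12 genes, some at 0) summed to 1.86 to 18.1 FPKM in C and E mice and 15.97 to 89.4 FPKM in T and TE mice. The part of these lists in the Sms values was not tested.

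Sat1 (chrX:153996128-153999452, minus strand), the acetyltransferase that starts polyamine breakdown and export, was at 16.4, 16.6, 15.6 and 16.1 CPM in the C mice and at 20.3, 23.2, 19.1 and 19.1 CPM in the E mice. It was at 20.2, 16.9, 21.9 and 22.5 CPM in the T mice and at 20.5, 17.2, 18.9 and 22.7 CPM in the TE mice. The C mice were the 4 lowest and lay close together, with an SD of 0.427 CPM, while the E, T and TE groups overlapped one another. Genes whose C mice did not overlap any other mouse, in either direction, made up 0.780% of those tested.

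The log2 fold change of Sat1 was 0.33 for E vs C (SE 0.0994, adjusted p = 0.166) and 0.33 for T vs C (SE 0.0995, adjusted p = 0.132), both by edgeR. These comparisons share the C mice. It was -0.04 for TE vs E (adjusted p = 0.941) and for TE vs T (adjusted p = 0.988). The interaction of tumor and training was -0.37 (SE 0.140, adjusted p = 0.472 by edgeR), with Sat1 in the TE group, at 19.8 ± 2.31 CPM, no higher than in the E group at 20.4 ± 1.95 CPM or in the T group at 20.4 ± 2.52 CPM (SD, n = 4). Without T mouse 2 the T vs C value was 0.41 (adjusted p = 0.0359), and without T mice 3 and 4 it was 0.19 (adjusted p = 0.603). Without T mice 3 and 4 the interaction was -0.23 (adjusted p = 0.863 by edgeR) and the TE vs T value of Sat1 was 0.10 (adjusted p = 0.840). Fibroblast markers (5 genes, none at 0) summed to 436 to 548 FPKM in E mice and 298 to 405 FPKM in C mice. Endothelial markers (4 genes, none at 0) summed to 139 to 149 FPKM in E mice and 106 to 138 FPKM in C mice, and satellite cell markers (4 genes, none at 0) to 4.95 to 6.21 FPKM and 3.96 to 4.7 FPKM, so that all 3 lists were higher in all E mice than in all C mice, as Sat1 was. In T mice red cell markers (5 genes) summed to 733 to 820 FPKM against 361 to 527 FPKM in C mice, and neutrophil markers (12 genes, of which 1 to 6 were at 0 in a library) to 15.97 to 89.4 FPKM against 1.86 to 18.1 FPKM. Their part in the Sat1 values was not tested.

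Smox (chr2:131333416-131368431, plus strand), spermine oxidase, turns spermine back into spermidine and releases hydrogen peroxide. It was at 277, 212, 223 and 244 CPM in the C mice and at 188, 305, 190 and 193 CPM in the E mice. It was at 263, 237, 106 and 125 CPM in the T mice and at 244, 231, 267 and 191 CPM in the TE mice. T mice 3 and 4 were again the lowest of all, at 0.453 and 0.534 times the median of the C mice, against a lowest level of 188 CPM in the other 14 mice. In the E group 3 mice lay below all C mice and 1 lay above them. The log2 fold change was -0.39 for T vs C (SE 0.236, adjusted p = 0.485), 0.35 for TE vs T (SE 0.236, adjusted p = 0.899) and -0.13 for E vs C (SE 0.235, adjusted p = 0.859). Without E mouse 2, the highest of its group, the E vs C value of Smox was -0.33 (adjusted p = 0.639). Without T mice 3 and 4 it was 0.06 for T vs C (adjusted p = 0.938) and -0.10 for TE vs T. The SD of log2 CPM within the T group was 0.656, which 11.2% of tested genes exceeded.

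Oaz1 (chr10:80662516-80665124, plus strand) encodes antizyme, which binds ornithine decarboxylase and sends it to the proteasome. Oaz1 was at 254, 247, 262 and 272 CPM in the C mice and at 265, 209, 247 and 240 CPM in the E mice. It was at 303, 272, 253 and 258 CPM in the T mice and at 235, 246, 278 and 263 CPM in the TE mice. It had the narrowest range of the 8 genes, with the highest mouse at 1.45 times the lowest, and its log2 fold changes lay between -0.11 for E vs C (SE 0.0781, adjusted p = 0.553) and 0.09 for TE vs E (SE 0.0781, adjusted p = 0.776).

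Azin1 (chr15:38487539-38519785, minus strand) encodes the antizyme inhibitor, which binds antizyme and so frees ornithine decarboxylase. It was at 45.8, 55.9, 52.3 and 46.8 CPM in the C mice and at 54.0, 47.6, 50.5 and 43.4 CPM in the E mice. It was at 39.5, 49.0, 37.2 and 41.5 CPM in the T mice and at 64.0, 36.4, 35.9 and 37.6 CPM in the TE mice. In the tumor-bearing groups 6 of 8 mice lay below every C and E mouse, and 1 TE mouse was the highest of the 16. The log2 fold change was -0.26 for T vs C (SE 0.152, adjusted p = 0.464) and -0.22 for the tumor main effect (SE 0.108, adjusted p = 0.381). Without TE mouse 1 the tumor main effect was -0.34 (adjusted p = 0.0186), so this call also turned on 1 library. Red cell markers were at 361 to 581 FPKM in C and E mice and 733 to 1270 FPKM in T and TE mice. Neutrophil markers were at 1.86 to 18.1 and 15.97 to 89.4 FPKM, with an overlap. Lymphocyte and lymph node markers (10 genes, some at 0) were at 8.92 to 42.0 FPKM in C and E mice and 4.71 to 11.2 FPKM in T mice. In TE mice they were at 5.03 to 124 FPKM, with a median of 8.02. The part of these lists in the Azin1 values was not tested.

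**Figure D3:**
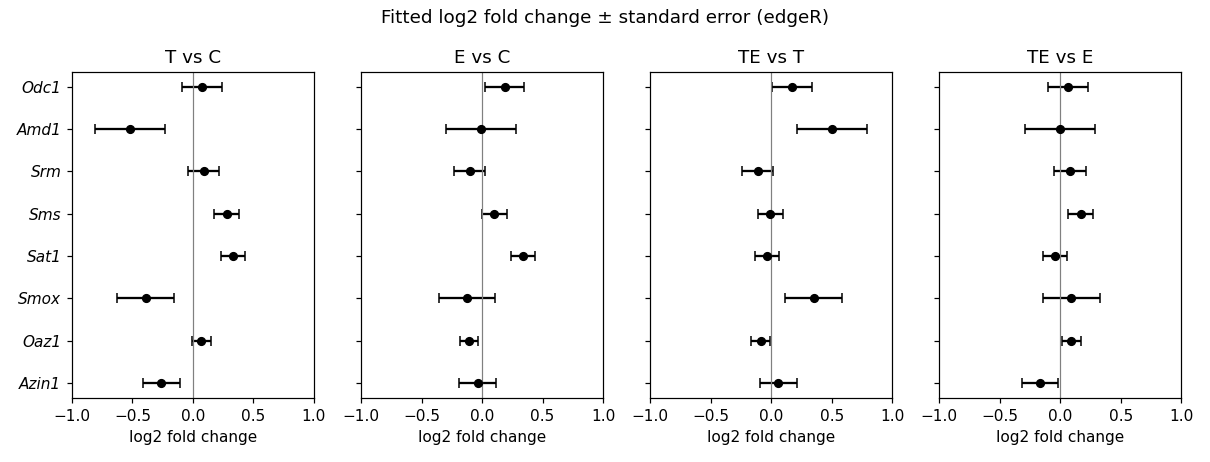
Fitted log2 fold changes of the 8 genes in 4 comparisons, as points with bars of 1 standard error. For T vs C, Sat1 and Sms lay above 0 and Amd1 and Smox below it with the widest bars, and 0 of the 8 passed the test in any of the 4.

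The counts called over the 8 genes are set beside those over all genes. Of all tested genes, 0.678% were called in T vs C, 0.231% in TE vs E, 0.0881% in E vs C and 0% in TE vs T, and of the 8 genes none was. The tumor main effect called 1.36% of all genes, the training main effect (E and TE against C and T) 0.00678% and the interaction 0%. At these shares a list of 8 genes without a call is no result about the pathway. At an unadjusted p under 0.05 there were 2 of 8 genes in T vs C (Sat1 and Sms, beside 14.2% of all genes), 0 in TE vs E (9.23% of all genes), 1 in E vs C (Sat1, beside 14.2%) and 0 in TE vs T (5.88%). There was 1 in each of the tumor main effect (Sms, beside 14.2% of all genes), the training main effect (Sat1, 10.8%) and the interaction (Sat1, 9.21%).

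The median log2 fold change over the 8 genes was 0.07 for T vs C and TE vs E, -0.02 for E vs C and 0.03 for TE vs T, beside medians of -0.0013, 0.0029, 0.0033 and 0.0014 over all tested genes. Groups whose 4 mice did not overlap in either direction were seen for 6.86% of all genes in T vs C, 6.62% in TE vs E, 9.08% in E vs C and 2.58% in TE vs T. Of the 8 genes 1 did so in each of the first 3 comparisons, Sat1 in T vs C and E vs C and Sms in TE vs E, and 0 did so in TE vs T.

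**Figure D4:**
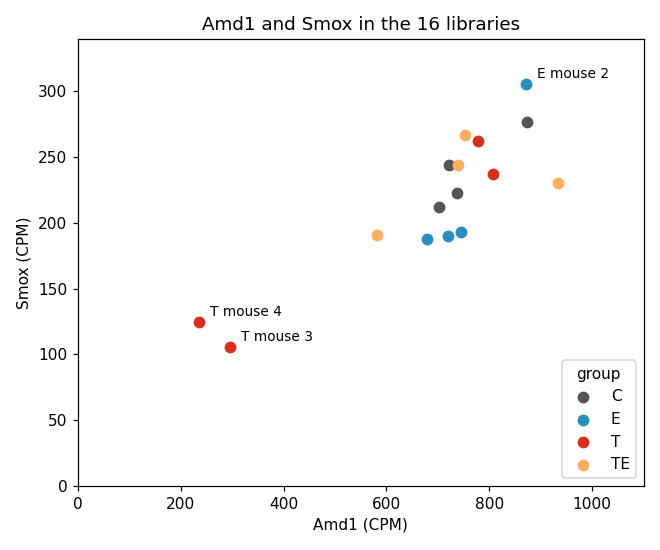
Amd1 against Smox in CPM, with 1 point per mouse coloured by group. T mice 3 and 4 sit apart at low levels of both genes, at 296 and 236 CPM of Amd1, and E mouse 2 has the highest Smox level.

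Amd1 and Smox varied together from mouse to mouse. Over the 16 libraries the Pearson correlation of their log2 CPM was 0.896 and Spearman's rho was 0.806. It was 0.878 with the group means taken out and 0.663 over the 14 libraries without T mice 3 and 4, so a part of the likeness rested on those mice. The libraries share the scaling of each mouse's total, and these values are a description. Smox ranked 4 among 14748 other genes in likeness to Amd1, and Amd1 ranked 2 in likeness to Smox. The other pairs were less alike: Srm and Oaz1 had 0.612, Odc1 and Sms 0.540, and Amd1 and Odc1 0.446, while Amd1 and Sat1 had -0.504, which was -0.269 without T mice 3 and 4.

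**Figure D5:**
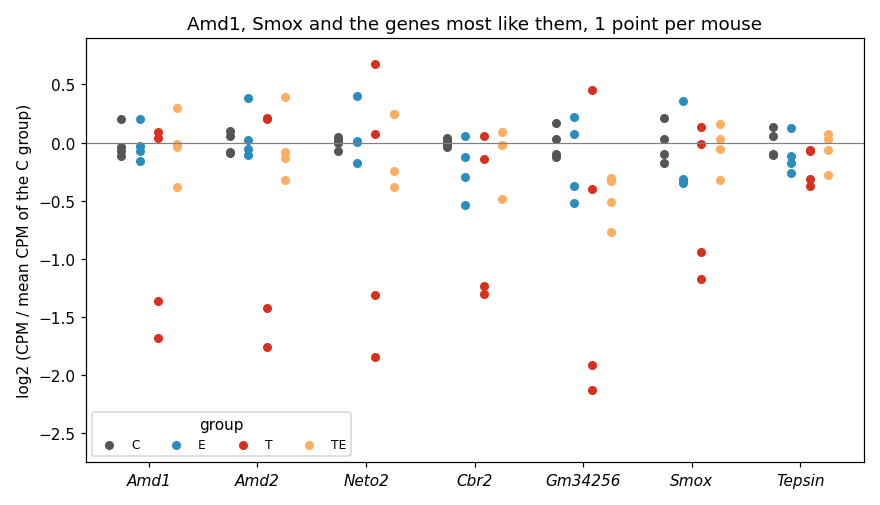
Levels of Amd1, Smox and the genes most like them, as log2 of CPM over the mean of the C mice, with 1 point per mouse coloured by group. T mice 3 and 4 are the lowest points of each gene, by a small margin for Tepsin.

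The 5 genes most like Amd1 over 16 libraries were Amd2 (Pearson r 0.977), Neto2 (0.947), Cbr2 (0.936), Smox (0.896) and Gm34256 (0.886). The 5 most like Smox were Cbr2 (0.917), Amd1 (0.896), Amd2 (0.867), Tepsin (0.845) and Neto2 (0.841). Neto2, which encodes an auxiliary subunit of kainate receptors, was at 3.37 and 2.32 CPM in T mice 3 and 4 against 6.41 to 13.3 CPM in the other 14. Cbr2, a carbonyl reductase, was at 13.4 and 14.1 CPM in them against 22.8 to 35.2 CPM. Amd2 was at 15.16 and 11.99 CPM against 32.4 to 53.3 CPM. Gm34256, a predicted gene, was at 0.579 and 0.497 CPM, from 22 and 18 counts, against 1.28 to 2.99 CPM. For Tepsin the gap was small, with 5.42 and 5.66 CPM against 5.78 to 7.69 CPM. Without T mice 3 and 4 the likeness to Amd1 was 0.761 for Amd2, 0.620 for Neto2, 0.637 for Cbr2 and 0.280 for Gm34256, and the likeness to Smox was 0.662 for Cbr2, 0.663 for Amd1, 0.473 for Amd2, 0.771 for Tepsin and 0.439 for Neto2.

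Low values in these 2 mice were not particular to Amd1 and Smox. Of all tested genes 263 (1.78%) were lower in both than in all other 14 mice and 309 (2.1%) were higher in both. Of the 8 members only Amd1 and Smox were among them, while T mouse 3 had Sms at 1.40 times and T mouse 4 at 0.925 times the median of the C mice. The 10 macrophage markers, none of which was at 0, summed to 157 and 170 FPKM in T mice 3 and 4 and to 74.8 and 75.5 FPKM in T mice 1 and 2. They summed to 57.6 to 113 FPKM in C mice, 62.8 to 118 FPKM in E mice and 74.3 to 151 FPKM in TE mice. The neutrophil markers, with 2 and 1 of 12 at 0, summed to 38.7 and 89.4 FPKM in T mice 3 and 4 and to 24.8 and 15.97 FPKM in the others of the group. Their part in the low Amd1 and Smox was not tested. The muscle fiber markers were at 72090 and 71970 FPKM in these 2 mice, within the range of the C mice of 70400 to 77000 FPKM.

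The wider pathway was described with 37 further genes of polyamine breakdown, transport, precursor supply, methionine salvage, hypusination and MYC, of which 29 passed the filter on low counts. Of these 29 genes, 1 passed the test in the tumor main effect (higher), where 1.36% of all tested genes passed, and 0 did in the other 6 comparisons. The one called was Slc3a2, the heavy chain of amino acid transporters that has also been linked to polyamine export. Slc3a2 was at 36.5, 39.8, 35.5 and 36.6 CPM in the C mice and at 39.5, 38.9, 34.1 and 37.1 CPM in the E mice. It was at 48.7, 44.1, 56.2 and 44.8 CPM in the T mice and at 42.4, 38.8, 50.4 and 41.5 CPM in the TE mice. All T mice lay above all C and E mice, and 3 of 4 TE mice did. The tumor main effect was 0.30 on the log2 scale (SE 0.0629, adjusted p = 0.0227 by edgeR), and T vs C alone gave 0.39 (SE 0.0889, adjusted p = 0.0570). The T vs C difference of Slc3a2 passed in 4 alternatives: DESeq2 (adjusted p = 0.00606), no filter on low counts (0.0428), and without T mouse 2 (0.0332) or TE mouse 3 (0.0384). The call in the tumor main effect was lost with limma on FPKM (adjusted p = 0.0961, 0.0930 and 0.144 for a pseudocount of 1, of 0.1 and with no filter) and without C mouse 4 (0.0541) or E mouse 3 (0.0561). The difference itself was 0.21, 0.25 and 0.21 (log2) in these limma fits, and 0.29 and 0.28 without these mice. Red cell markers, at 361 to 581 FPKM in C and E mice and 733 to 1270 FPKM in T and TE mice, and neutrophil markers, at 1.86 to 18.1 FPKM and 15.97 to 89.4 FPKM in the same mice, were also higher, and their part in the Slc3a2 values was not tested.

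Mycn, a MYC family factor, was at 1.78, 1.5, 2.13 and 1.70 CPM in the C mice and at 0.289, 0.663, 0.553 and 0.553 CPM in the T mice. These were 56 to 79 counts in C and 10 to 24 counts in T, without overlap, and the log2 fold change of -1.78 (SE 0.425, adjusted p = 0.0652 by edgeR) did not pass. Mycn was at 1.60, 0.355, 0.886 and 0.405 CPM in the E mice and at 0.472 to 0.947 CPM in TE mice. Its log2 fold change for E vs C was -1.125 (SE 0.410, adjusted p = 0.239 by edgeR), so low values were not particular to tumor-bearing mice. Max, the partner of MYC proteins, belonged to the same list and had 25.6 to 27.7 CPM in C mice and 30.2 to 32.9 CPM in T mice, with a log2 fold change of 0.23 (adjusted p = 0.197), named here after its values were seen. For both genes the C and T mice did not overlap, as for 6.86% of all tested genes. Red cell markers were at 733 to 820 FPKM in T mice and 361 to 527 FPKM in C mice. Neutrophil markers were at 15.97 to 89.4 and 1.86 to 18.1 FPKM, with an overlap. Lymphocyte and lymph node markers (10 genes, some at 0) were lower in T mice, at 4.71 to 11.2 against 8.92 to 42.0 FPKM, also with an overlap. In E mice these lists were at 391 to 581, 2.05 to 9.54 and 14.1 to 41 FPKM. Their part in the Mycn and Max values was not tested.

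Eif5a, the translation factor that carries hypusine, a residue made from spermidine, was at 299, 265, 267 and 280 CPM in the C mice and at 244, 249, 234 and 241 CPM in the E mice. The groups did not overlap, and the log2 fold change for E vs C was -0.20 (SE 0.0609, adjusted p = 0.182 by edgeR), beside 9.08% of all tested genes whose C and E mice did not overlap. The summed fibroblast, endothelial and satellite cell markers also separated these groups, with E higher, and their part in the Eif5a values was not tested. Its paralog Eif5a2 was at 2.46 to 3.19 CPM in C mice and 2.76 to 4.48 CPM in E mice, and the training main effect was 0.33 for Eif5a2 (adjusted p = 0.347) and -0.12 for Eif5a (adjusted p = 0.347).

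Transport genes other than Slc3a2 gave small or uncertain values. Atp13a2, a lysosomal polyamine exporter, was at 26.1 to 27.3 CPM in C, 23.8 to 27.0 in E, 28.3 to 31.3 in T and 24.7 to 28.4 CPM in TE mice, and the log2 fold change for TE vs T was -0.17 (SE 0.0622, adjusted p = 0.758 by edgeR). Slc22a2, an organic cation transporter, had 8 to 12 counts in each TE mouse and 12 to 44 counts in the other mice, with -1.51 for TE vs T (adjusted p = 0.693) and -1.23 for TE vs E (adjusted p = 0.373). Slc7a1, a transporter of arginine and ornithine, was at 4.12 to 7.47 CPM in E mice and 2.88 to 5.04 CPM in TE mice, with -0.57 for TE vs E (SE 0.221, adjusted p = 0.419).

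Over the 29 genes the median log2 difference was 0.05 for T vs C, 0.01 for TE vs E, -0.05 for E vs C and 0.0019 for TE vs T. At an unadjusted p under 0.05 there were 9, 3, 9 and 3 of the 29 in these comparisons, beside 14.2%, 9.23%, 14.2% and 5.88% of all tested genes. There were 7 of the 29 in the tumor main effect, 9 in the training main effect and 3 in the interaction, beside 14.2%, 10.8% and 9.21%. The nearest copy of a member, Amd2, gave -0.43 for T vs C (SE 0.322, adjusted p = 0.582) and 0.42 for TE vs T (SE 0.322, adjusted p = 0.919). T mice 1 and 2, at 46.97 and 46.57 CPM of Amd2, lay above all C mice, which were at 38.11 to 43.37 CPM. Without T mice 3 and 4 the signs of Amd2 turned, to 0.21 for T vs C (adjusted p = 0.720 by edgeR) and -0.21 for TE vs T (adjusted p = 0.770).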

How the data were processed

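Counts per gene and FPKM of 16 libraries were used, 1 per mouse, with groups and mouse numbers from the labels. The authors trimmed reads with fastp 0.20.1, aligned them to GRCm39 with HISAT2 2.1.0 and deposited HTSeq 0.11.2 counts, not normalized (tool versions from the submitters' processing notes). The authors also deposited FPKM, which follow from these counts, gene lengths and totals. Annotation release and strand setting are not given in the sources used here. The tables held 0 columns of other samples.

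Counts were tested with edgeR 4.0.16 in R 4.3.3 (filterByExpr, TMM, quasi-likelihood test, 1 coefficient per group, two-sided p, Benjamini-Hochberg adjustment over 14749 genes). The standard error is the fold change over the root of F. The test was checked on simulated data. Alternatives used DESeq2 1.42.0, limma 3.58.1 on log2(FPKM + 1) and (FPKM + 0.1), other scaling and filters, and left out each mouse in turn. Same-numbered mice were separate animals and were not paired. Positions, promoters and coding bases came from the GENCODE annotation and genome of GRCm39. Figures used matplotlib 3.10.9.

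Members and lists were chosen with earlier results of these data known. Named genes were the 8 members, the called genes and the 2 with the smallest p per comparison in the wider list, and the 5 genes most correlated with Amd1 and with Smox. Histology and muscle weights were not analysed here.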

Additional observations from a re-analysis of the deposited data

Results flagged for a closer look

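Single mice that stood far from the other 3 of their group were looked for with Dixon's test in the 32 combinations of 8 genes and 4 groups. Of the 32 combinations 3 were flagged. Chance alone flags about 1 in 20 combinations, so a few flags are no result in themselves. Smox in E mouse 2 was at 305 CPM against 188 to 193 CPM in the other E mice, and without it the E vs C value of Smox was -0.33 in place of -0.13 (log2). Azin1 in TE mouse 1 was at 64.0 CPM against 35.9 to 37.6 CPM. Srm in C mouse 4 was at 6.32 CPM against 5.45 to 5.60 CPM. The low Amd1 and Smox of T mice 3 and 4 do not come up in this test, since it looks for 1 mouse far from the rest.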

How the results depend on the processing

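The 8 genes had 0 calls in every comparison that could be fitted under DESeq2, DESeq2's size factors in edgeR, no filter on low counts, a fit of only the groups compared, a robust fit and limma on FPKM. Leaving out each mouse in turn gave 0 to 1 called member in T vs C (Sat1 at 0.41 without T mouse 2, Sms at 0.39 without T mouse 4) and 0 to 1 in the tumor main effect (Sms at 0.28 without T mouse 4, Azin1 at -0.34 without TE mouse 1). Without T mice 3 and 4, an alternative chosen after seeing the data, the tumor main effect called 1 member (Sms, 0.26, adjusted p = 0.032 by edgeR). With the mouse number as a replicate block 0 members were called in each comparison. The mean correlations of same-numbered mice were -0.0811 to 0.0885, so the mice share only a number.

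Of 56 values of a gene in a comparison, 26 changed sign under at least 1 alternative, in 89 of 1432 alternative values, and 5 of these 1432 were called. Of the values whose sign turned under an alternative planned at the start, the largest was 0.174 (log2) in size. The counts over all genes depended on the tool: edgeR called 100 genes in T vs C, 34 in TE vs E, 13 in E vs C, 0 in TE vs T, 201 in the tumor main effect, 1 in the training main effect and 0 in the interaction, where DESeq2 called 421, 178, 279, 7, 478, 104 and 20. With the replicate block 25 genes were called in E vs C. Leaving out each mouse in turn gave 16 to 255 in T vs C, 18 to 69 in TE vs E, 0 to 127 in E vs C, 0 to 2 in TE vs T, 130 to 281 in the tumor main effect, 1 to 104 in the training main effect (104 without T mouse 3) and 0 to 1 in the interaction. For Amd1 the standard error of 0.289 (log2) with 4 mice per group limits what these libraries can show.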
